A study of Mus musculus with 9 samples.

Results

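The Ifi200 cluster is a row of related genes on mouse chromosome 1, and 10 of its genes were followed through an expression experiment on leukemia cells: Ifi203, Ifi204, Ifi205, Ifi207, Ifi208, Ifi209, Ifi211, Ifi213, Mndal and Aim2. They were picked by gene symbol, all 10 symbols were found once, and the table holds 55536 genes in all. The proteins of this family carry a pyrin domain, which joins them to other proteins of the inflammatory response, or a HIN domain, which grips DNA, or both. Aim2 is the cytosolic DNA sensor that recruits the adaptor Pycard and the protease Casp1 into an inflammasome, while most of the other genes are named for their induction by interferon and several of their proteins are found in the nucleus. In mice the content and the activity of the cluster differ between inbred strains, and Ifi202b is known for being nearly silent in C57BL/6.

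RNA was sequenced from 9 libraries of acute myeloid leukemia cells sorted from bone marrow. In the study's model a retrovirus brought MLL-AF9, a leukemia fusion gene, together with GFP into c-kit+ cells of wild-type (WT) or IRF7-/- donors, so all 3 groups share the oncogene and GFP. The GFP+ leukemia cells went into C57BL/6J recipients of 6 to 8 weeks, at 1000000 cells a mouse and with no irradiation, so the hosts kept their own blood cells, and cells were sorted on day 18. The groups hold 3 libraries each: AML-WT-c-kit- (GFP control genotype, no surface c-kit, the stem cell factor receptor), AML-WT-c-kit+ (the same genotype, with c-kit) and AML-IRF7-/--c-kit+ (IRF7-/- with GFP, with c-kit). All 9 are labelled C57BL/6J, and the knockout was made by putting a cassette in place of part of Irf7 on that background. These groups are called the c-kit- libraries, the WT c-kit+ libraries and the labelled libraries from here on. The labels do not say whether the libraries of a group came from separate mice, so p-values measure the spread between these libraries, which may be technical.

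Irf7, which encodes a transcription factor of the interferon response, ran from 22.3 to 32.3 in c-kit-, from 3.36 to 5.31 in WT c-kit+ and from 5.97 to 12.8 in the labelled libraries, in TPM, a level scaled by gene length and by the total of the library. A value per gene sums over exons outside the replaced part too, so it does not measure the intact message. These libraries are therefore named by their label, and every difference from them depends on it. Library 1 of that group stands apart from the other two: it held the highest of the 3 values for 25 of 26 interferon-stimulated genes, whose sum was 1675 TPM against 486 and 595 TPM, and for 9 of the 10 cluster genes, Aim2 being the exception. Kit, which encodes c-kit, was at 0.52 to 3.03 TPM in the c-kit- libraries and at 50.7 to 85.7 TPM in the others. The number of reads behind a value is unknown, since TPM keep no depth.

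The cluster spans 681 kb, chr1:173350879-174031810 in GRCm38. It runs from Aim2 to Ifi205, and 3 further family members of the same stretch, Ifi202b, Ifi206 and Ifi214, are not among the 10. Mndal (chr1:173849126-173942491, minus strand) takes in the whole of Ifi211 (chr1:173896345-173913046) and most of Ifi203 (chr1:173920407-173942672) on its own strand, because its longest annotated form begins beside the start of Ifi203. Aim2 (chr1:173350879-173466040, plus strand) overlaps Cadm3 on the opposite strand, and the library kit named in the labels does not mark strand. The genes are also alike in sequence. Of the 50-base windows in the annotated transcripts of Ifi211, 72.8% occur in another gene. Ifi205 holds 44.7% of the windows and Ifi204 holds 30.1%. The share was 33.7% for Ifi209, 20.9% for Ifi208, 20.02% for Ifi204, 19.6% for Mndal, 18.6% for Ifi205, 15.6% for Ifi213, 12.4% for Ifi203, 7.29% for Ifi207 and 0.742% for Aim2. Levels of Ifi211 and, less so, Ifi209 can depend on how the authors' counting divided shared reads.

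Interferon acts on its target genes through a DNA element called the ISRE, which the interferon regulatory factors bind, and this element was searched in the RefSeq promoters of the genes (250 bases before to 50 after the start site, GRCm38.p6; 9 of the 10 genes matched, Ifi204 did not). The letters were GAAANNGAAA on either strand. They occur in 3.44% of all 32851 promoters and in the promoters of 7 of the 9 genes, all but Aim2 and Ifi209. By the same search 12 of the 19 matched interferon-stimulated genes outside the cluster had it, and 0 of the 8 matched inflammasome genes. A match in letters is a description and was not tied to binding here. The 60-base stretches around the element are printed 5′ to 3′ on the strand of each gene, with the element in capitals, because pairs of genes share them almost letter for letter. Bases before the start site have negative positions, the start site is the first positive base, and there is no position 0.

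Ifi213, chr1:173599311-173599370, minus strand, element from -73: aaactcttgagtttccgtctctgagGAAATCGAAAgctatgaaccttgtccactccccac
Ifi208, chr1:173673582-173673641, plus strand, element from -58: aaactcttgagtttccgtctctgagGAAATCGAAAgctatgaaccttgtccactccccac
Mndal, chr1:173880189-173880248, minus strand, element from -36: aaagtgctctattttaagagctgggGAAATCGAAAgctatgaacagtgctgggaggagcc
Ifi203, chr1:173942493-173942552, minus strand, element from -35: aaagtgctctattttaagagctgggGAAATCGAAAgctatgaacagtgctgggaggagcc
Ifi207, chr1:173741816-173741875, minus strand, element from -41: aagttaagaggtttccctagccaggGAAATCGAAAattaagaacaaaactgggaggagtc
Ifi211, chr1:173913049-173913108, minus strand, element from -37: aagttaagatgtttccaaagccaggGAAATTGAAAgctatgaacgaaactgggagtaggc
Ifi205, chr1:174031855-174031914, minus strand, element from -134: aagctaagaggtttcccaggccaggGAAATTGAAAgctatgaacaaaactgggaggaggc
Ifi209, chr1:173630755-173630814, plus strand, nearest letters from -79: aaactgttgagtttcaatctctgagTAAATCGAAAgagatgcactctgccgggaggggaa
Ifi214, chr1:173536002-173536061, minus strand, element from -79: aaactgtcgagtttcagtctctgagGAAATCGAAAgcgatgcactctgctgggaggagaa

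The stretches of Ifi213 and Ifi208 are identical over 60 of 60 bases, and so are those of Mndal and Ifi203. Ifi211 and Ifi205 share 54 of 60 bases, and Ifi207 shares 52 with Ifi205. The exact letters GAAATCGAAA, singled out after they were seen, lie in 16 of all 32851 promoters, 5 of them promoters of the 10 genes. Ifi209 has no match: its nearest letters differ from GAAATCGAAA by the substitution G1T, counted from 1 at the element's first base with the letter of the element given first. Its stretch is otherwise closest to that of Ifi214, which has the element, with 54 of 60 bases in common. Aim2 has no match to the element. Its upstream bases are printed for contrast, with the only match to GAGGAAG, a core recognised by ETS family factors such as PU.1, in capitals.

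Aim2, chr1:173420354-173420603, plus strand, ending at the base before the start site: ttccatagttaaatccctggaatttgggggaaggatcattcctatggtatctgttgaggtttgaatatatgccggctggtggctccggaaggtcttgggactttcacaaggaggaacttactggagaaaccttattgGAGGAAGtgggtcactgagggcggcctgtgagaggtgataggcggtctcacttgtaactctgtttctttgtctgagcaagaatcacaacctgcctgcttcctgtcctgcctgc

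GAGGAAG occurs in 13.6% of all promoters, and among the matched genes in that of Aim2 alone. The letters TTCNNNGAA, known as the GAS element, occur in 8.30% of all promoters and in none of the 9 genes.

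**Figure D1:**
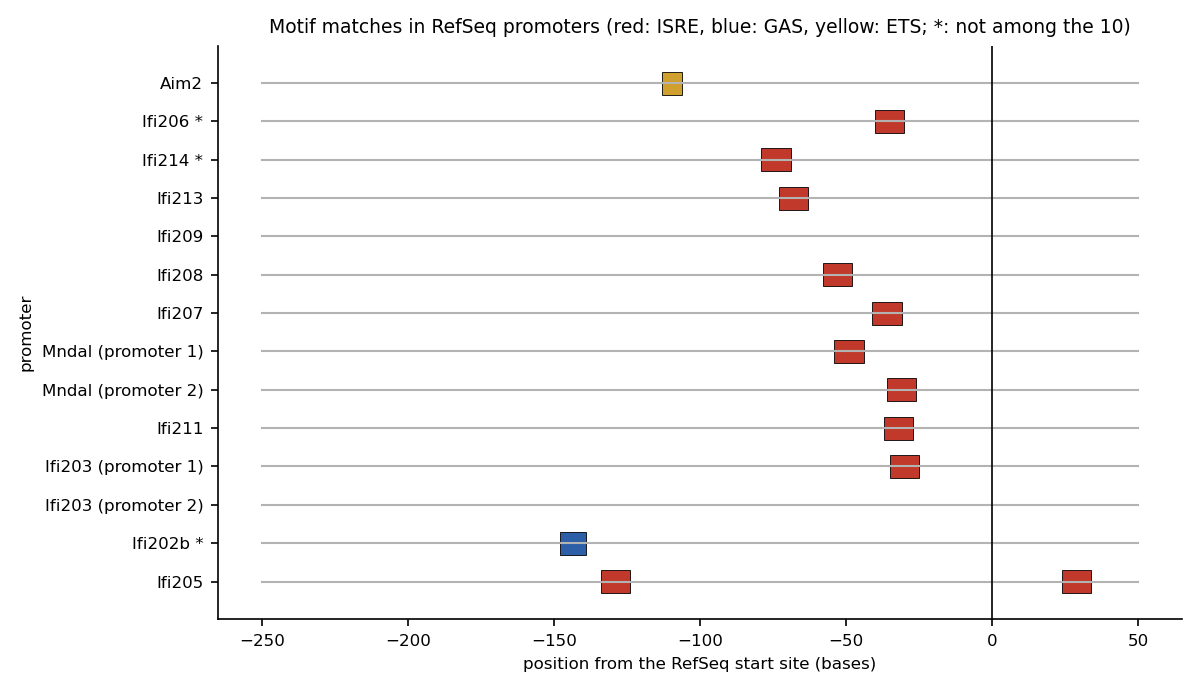
Positions of motif matches (coloured boxes) in each RefSeq promoter from 250 bases before to 50 bases after the start site, with 1 line per promoter in order along the chromosome. Red boxes (ISRE) before the start site begin between -134 and -35 on 7 of the 9 matched genes, Ifi205 has a further one from 24, the line of Ifi209 has no box, and that of Aim2 has only the ETS box from -113.

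The first comparison asked how the cluster differs between WT leukemia cells with and without c-kit, the more primitive and the more mature cells of the same leukemia. Of the 10 genes, 9 passed the filter on low values, 7 were lower in WT c-kit+ than in c-kit- cells, none was higher, and the libraries of the groups did not overlap for any of the 9. Ifi208, below the filter, did not overlap either. At an unadjusted limma p under 0.05, 9 of the 9 were lower and 0 were higher, where 32.3% of all genes tested were lower and 17.7% higher. Ifi204, Ifi205, Ifi207 and Ifi213 passed the filter only through the c-kit- libraries, where they are high. For these genes the filter favours the lower direction, so the count of 9 is not free of it. With no filter, 7 of the 10 were lower, where 1836 of all 25743 genes were called in either direction. The summed level of the 10 genes was 511 ± 6.49 TPM in c-kit- cells and 121 ± 17.5 TPM in WT c-kit+ cells (SD, n = 3). Lower or higher here means a difference of at least 1 in log2(TPM + 1) and a limma adjusted p under 0.05. Of all 13261 genes tested, 9.61% were lower, 4.83% were higher, and 54.4% did not overlap. Higher genes made up 33.5% of these calls, and 43.7% when the libraries were scaled to equal medians. The median difference over the 9 genes was -2.60 on the log2(TPM + 1) scale, against -0.08 over all genes. Beside this, 3 of the 4 marker genes of conventional dendritic cells were tested, 2 were lower, and the sum of the 4 ran from 28.7 to 40.6 TPM in c-kit- and from 3.33 to 6.58 TPM in WT c-kit+ libraries. Of the 4 plasmacytoid dendritic cell markers only Siglech was tested, and it was lower (-1.79). Their sums were 2.64 to 5.4 and 0.43 to 0.63 TPM. Of 2 megakaryocyte markers tested, Gp9 was higher (2.60) and the other was not called. None of the B cell, erythroid and stroma markers tested was called, and no T or NK cell marker passed the filter. The 6 macrophage markers summed to 104 to 130 and 35.5 to 57.1 TPM. They did not move together: Cd163 (-2.65) and Adgre1 (-1.35) were lower in WT c-kit+ cells, and C1qa (1.29), C1qb (1.28) and C1qc (1.01) were higher. The part of these cells in the result was not tested, and in bulk samples fewer cells of a kind cannot be told apart from less RNA per cell.

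Ifi207 had the largest difference of the 10. Its levels were 22.5, 22.8 and 38.4 TPM in the c-kit- libraries and 1.44, 0.87 and 1.51 TPM in the WT c-kit+ libraries. Each c-kit- library was far above each c-kit+ library, with a mean ratio of 21.9 and a log2 difference of -3.64 (standard error, SE, 0.24, limma adjusted p = 6.58e-05). Ifi204, whose protein p204 is the mouse relative of human IFI16, was close behind, with 17.5, 16.4 and 21.1 against 0.45, 0.88 and 1.28 TPM. The groups did not overlap and the log2 difference was -3.39 (SE 0.20, limma adjusted p = 4.46e-05).

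Ifi211 was at 16.5, 17.9 and 19.2 TPM in c-kit- and at 1.39, 1.57 and 1.19 TPM in WT c-kit+ libraries. The log2 difference of -2.98 (SE 0.12) came with narrow spreads in both groups. For Ifi203 the values were 88.0, 100 and 99.5 against 15.7, 15.7 and 12.0 TPM, a log2 difference of -2.65 (SE 0.12, limma adjusted p = 2.27e-05). Mndal, named for its likeness to the human myeloid nuclear differentiation antigen, was the most abundant of the 10 in c-kit- libraries, at 175, 180 and 177 TPM. It stood at 27.6, 35.1 and 23.8 TPM in WT c-kit+ libraries, a log2 difference of -2.60 (SE 0.13). Mndal and Ifi203, which share the promoter stretch printed for them, had close estimates here.

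Ifi209 ran from 69.4 to 80.6 TPM without c-kit and from 15.7 to 20.9 TPM with it, a log2 difference of -1.96 (SE 0.12). Its promoter holds no full element. Ifi213 was scarce in both, at 3.89, 3.62 and 6.35 against 0.82, 1.21 and 0.63 TPM, and its log2 difference was -1.55 (SE 0.23, limma adjusted p = 0.00188). Ifi205 had 1.77, 3.75 and 3.35 against 1.19, 1.69 and 0.68 TPM. Its groups lay next to each other without overlap, and its difference of -0.84 (SE 0.27, limma adjusted p = 0.0446) was under the size asked for. It went past that size without c-kit- library 1, at -1.08, and without WT c-kit+ library 2, at -1.01. Ifi208 stayed below the filter, with 0.44 to 0.73 TPM and 0.04 to 0.09 TPM.

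Aim2 and Ifi205 had the smallest differences of the 9 genes tested. Its levels were 97.0, 90.0 and 80.8 TPM in c-kit- and 44.8, 63.0 and 51.4 TPM in WT c-kit+ libraries, a mean ratio of 1.68 where Ifi207 and Ifi204 had ratios of 21.9 and 21.1. The log2 difference of Aim2 was -0.75 (95% interval -1.07 to -0.43, limma adjusted p = 0.00449). Of the 7 genes called lower, Ifi213 had an interval that touched this one, -2.09 to -1.01, and those of the other 6 lay wholly below it. For single genes an exact two-sided permutation test over 3 and 3 libraries cannot go below p = 0.1, the value it gave for each of the genes without overlap.

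**Figure D2:**
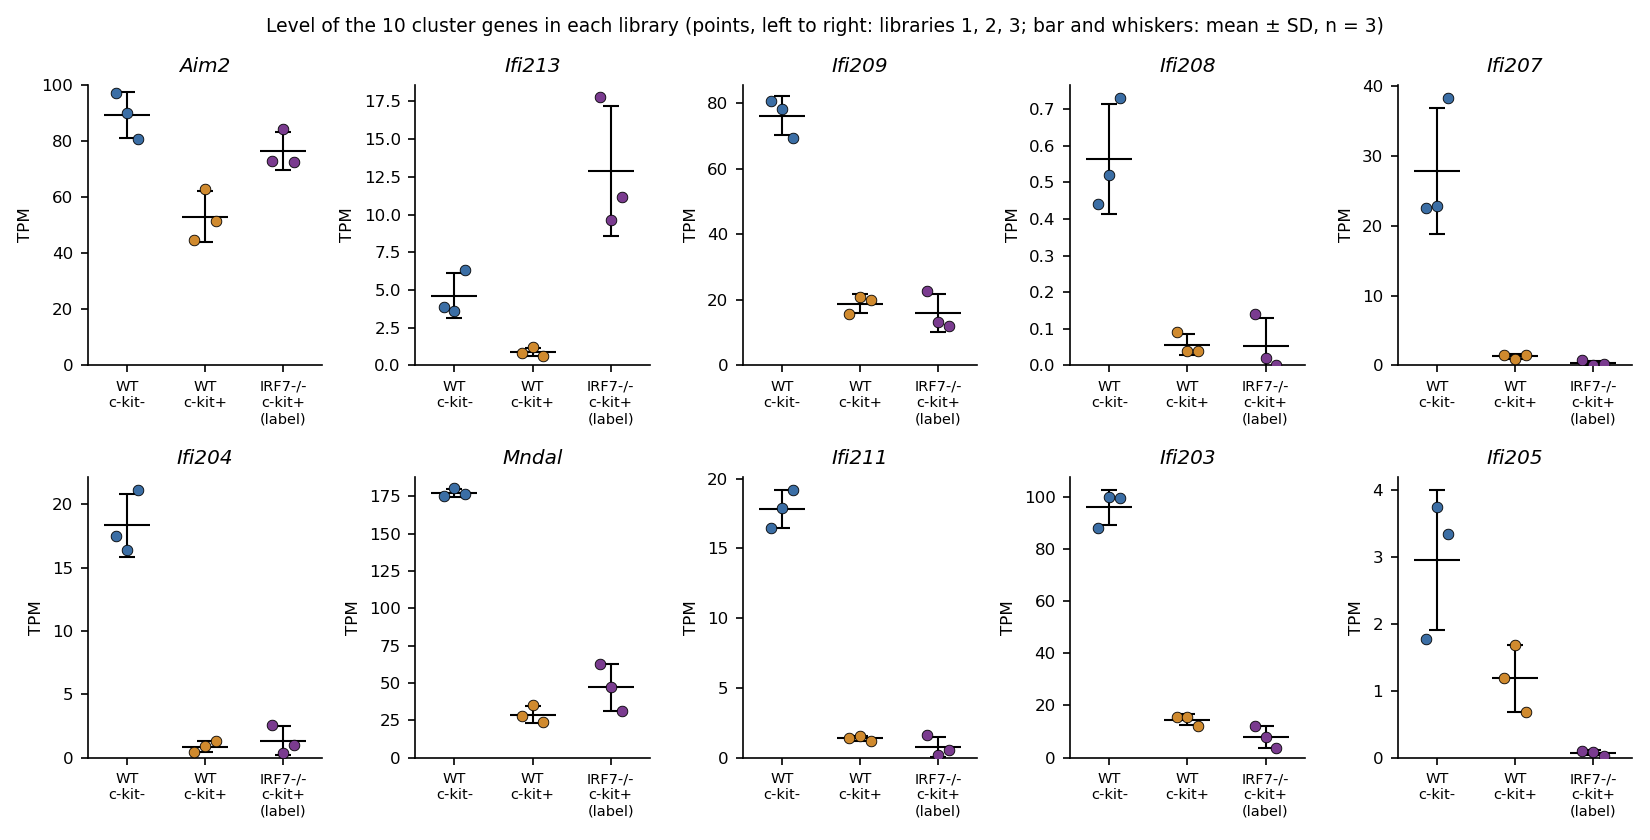
TPM of each of the 10 genes (1 panel per gene, linear axis from 0) in the 3 libraries of each group, with the group mean and SD (n = 3). c-kit- has the highest mean in 9 panels, and in the panel of Ifi213 the labelled libraries are the highest, at 9.64 to 17.8 TPM.

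The make-up of the cluster's RNA differed along with its level. Aim2 made up 17.5% ± 1.80 (SD, n = 3) of the summed level in c-kit- libraries and 43.8% ± 2.44 in WT c-kit+ libraries. Mndal went from 34.7% ± 0.41 to 23.8% ± 2.27 and Ifi203 from 18.7% ± 1.11 to 12.1% ± 2.04. Shares of one sum move against each other, so the share of Aim2 was higher while its own level was lower. In c-kit- libraries the order of mean levels was Mndal, Ifi203, Aim2, Ifi209, Ifi207, Ifi204, Ifi211, Ifi213, Ifi205 and Ifi208. In that order the ranges of Ifi203 and Aim2, of Ifi204 and Ifi211, and of Ifi213 and Ifi205 overlapped. In WT c-kit+ libraries Aim2 came first, Mndal second, and then Ifi209 and Ifi203, which overlapped, while Ifi211, Ifi207, Ifi205, Ifi213 and Ifi204 had mean levels of 0.87 to 1.38 TPM and each overlapped the next.

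The second comparison set the labelled libraries against WT c-kit+ and so asked how the knockout genotype, as labelled, differs within c-kit+ cells. Of the 10 genes, 7 passed the filter, 1 was higher (Ifi213), 0 were lower, and 2 of these 7 did not overlap between the groups (Ifi213 and Aim2). Ifi205 and Ifi207, below the filter, did not overlap either. By limma adjusted p alone 2 of the 7 were higher, where 31.9% of all genes tested were higher. At an unadjusted limma p under 0.05, 3 of the 7 were higher (Ifi213, Aim2 and Mndal) and 1 was lower (Ifi203), where 36.3% of all genes were higher and 18.9% lower. Over all 13238 genes 6.3% were higher, 5.39% were lower and 59.1% did not overlap, so a gene with no overlap is common here. The median difference of the 7 genes was 0.23, against 0.12 over all genes. Without labelled library 1 it was -0.06 over 6 genes, against 0.11 over all genes. Ifi204 then fell below the filter, so the change of sign goes with 1 library and 1 gene fewer. The summed level of the 10 was 163 ± 30.4 TPM (SD, n = 3) with 193, 163 and 132 TPM in libraries 1, 2 and 3. Of the dendritic cell markers only Cd209a was tested here, and it was lower, at -1.58. Of the 5 macrophage markers tested, 0 were called. Of the stroma and endothelium markers 2 were tested. Pdgfrb, a growth factor receptor gene, was higher by 2.72, with 12.1, 15.9 and 12.7 TPM in the labelled libraries against 0.68, 1.46 and 1.57 TPM, and Cxcl12 was not called, at 0.97. The part of these markers' cells in the result was not tested.

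Ifi213 was at 17.8, 9.64 and 11.2 TPM in the labelled libraries and at 0.82, 1.21 and 0.63 TPM in WT c-kit+ libraries. The lowest of the first 3 was well above the highest of the others, with a mean ratio of 14.5. The log2 difference was 2.85 (95% interval 2.28 to 3.41, SE 0.24, limma adjusted p = 0.00026), or 2.73 above the median of all genes. It was called under each of the 13 settings that gave it a value, from 2.61 without labelled library 1 to 3.71 with a pseudocount of 0.1. Ifi213 passed the filter only through the labelled libraries, where it is high, and having no filter was among these settings. Ifi208, whose promoter stretch is identical over 60 of 60 bases, was at 0.14, 0.02 and 0.00 TPM in the same libraries and below the filter. Ifi206, which shares 59 of the 60 bases and is not among the 10, was at 2.64, 0.23 and 0.64 TPM against 0.28, 0.09 and 0.10 TPM, and its groups overlapped. Ifi213 shares 13.6% of its 50-base windows with Ifi208 and 4.47% with Ifi206.

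Aim2 was at 72.7, 84.3 and 72.5 TPM against 44.8, 63.0 and 51.4 TPM, so that every labelled library was above every WT c-kit+ library. The log2 difference of 0.53 (95% interval 0.22 to 0.84, limma adjusted p = 0.015) was below the size asked for under all 13 settings with a value. Mndal had 62.8, 47.2 and 31.1 TPM against 27.6, 35.1 and 23.8 TPM. Its groups overlapped through labelled library 3, and the difference of 0.65 (SE 0.26, limma adjusted p = 0.0776) did not pass.

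Ifi203 had 12.2, 7.71 and 3.68 TPM against 15.7, 15.7 and 12.0 TPM, with labelled library 1 inside the range of the other group. The difference was -0.92 (95% interval -1.77 to -0.08, limma adjusted p = 0.0705). Without labelled library 1 it was -1.27 (limma adjusted p = 0.0192) and Ifi203 counted as lower, so that 1 library decides this call. Mndal and Ifi203, alike in their promoter stretch, had estimates of opposite sign here, neither of which passed. Ifi209 (-0.27, limma adjusted p = 0.384), Ifi211 (-0.48, limma adjusted p = 0.206) and Ifi204 (0.23, limma adjusted p = 0.628) did not pass. Their 95% intervals were -0.82 to 0.29, -1.15 to 0.20 and -0.64 to 1.11.

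Ifi205, Ifi207 and Ifi208 were below the filter of 1 TPM in 3 libraries. Ifi205 had the plainest separation of these at 0.10, 0.09 and 0.03 TPM in the labelled libraries and 1.19, 1.69 and 0.68 TPM in WT c-kit+ libraries. With no filter its difference was -1.0 (limma adjusted p = 0.0117) and it counted as lower. Ifi207 had 0.70, 0.10 and 0.23 TPM against 1.44, 0.87 and 1.51 TPM, also without overlap, and -0.77 with no filter (limma adjusted p = 0.0464). Such differences between mouse lines in this cluster can also come with the strain of origin. All libraries are labelled C57BL/6J, Ifi202b was at 0 to 0.19 TPM in all 9, and the alleles carried at the cluster were not tested.

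**Figure D3:**
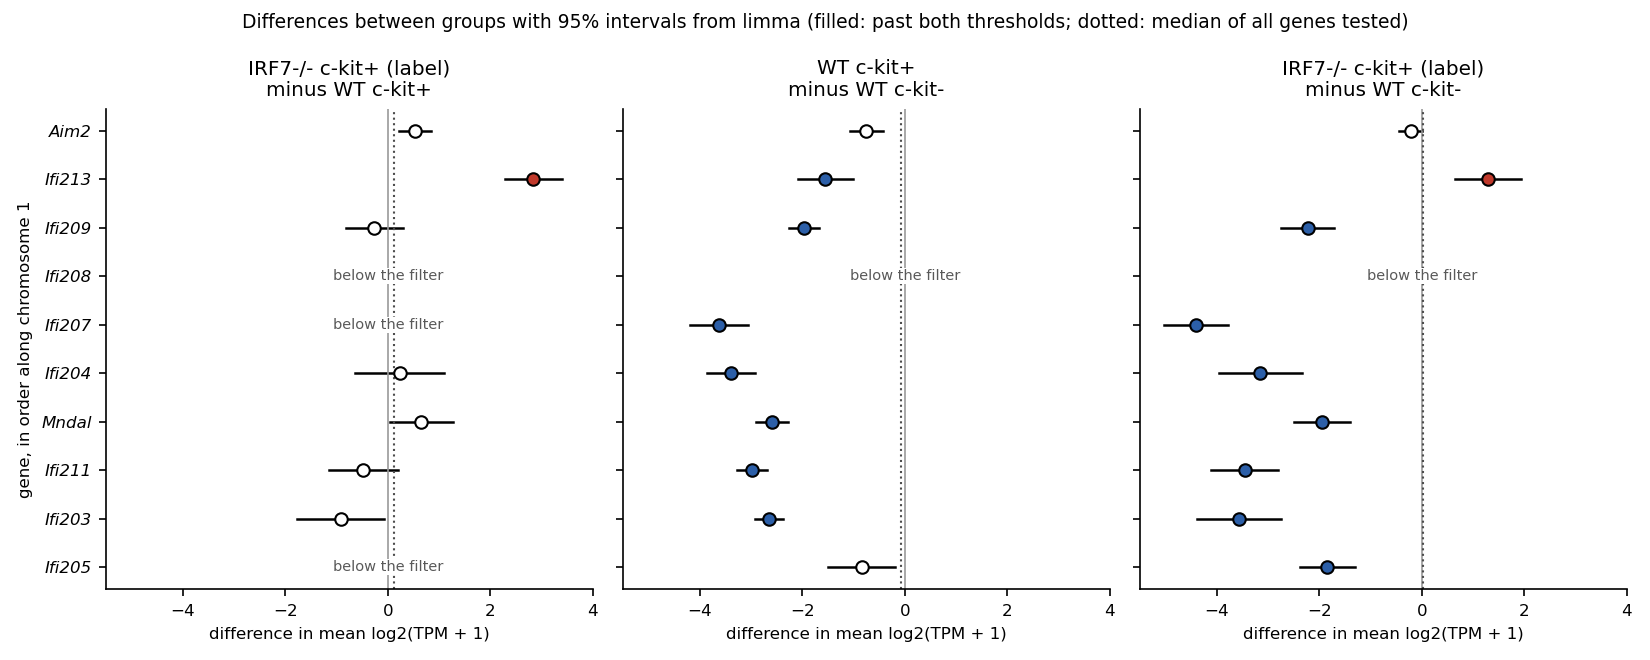
Differences in mean log2(TPM + 1) with 95% intervals from limma for the genes that passed the filter, in the 3 comparisons, with filled points past both thresholds and the dotted line at the median of all genes tested. Ifi213 is the only filled point above 0, at 2.85 and 1.29 in the panels of the labelled libraries, and Aim2 is open in all 3 panels.

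The third comparison set the labelled libraries against c-kit- cells, and it shares libraries with each of the others. Of the 10 genes, 9 passed the filter, 7 were lower, 1 was higher and 8 of these 9 did not overlap, while over all 13510 genes 11.9% were lower, 8.4% were higher and 67.1% did not overlap. Ifi204, Ifi205, Ifi207 and Ifi211 passed the filter only through the c-kit- libraries, where they are high, which favours a lower call. Ifi205 and Ifi207 were under 1 TPM in every labelled library. The log2 difference was -4.41 for Ifi207, -3.57 for Ifi203, -3.46 for Ifi211, -3.15 for Ifi204, -2.23 for Ifi209, -1.95 for Mndal and -1.84 for Ifi205. Ifi213 was higher by 1.29 (SE 0.27, limma adjusted p = 0.00559), since 9.64 to 17.8 TPM stood against 3.62 to 6.35 TPM. Aim2 overlapped between these groups, with a difference of -0.22 (95% interval -0.44 to 0.0012, limma adjusted p = 0.0794). The conventional dendritic cell markers summed to 0.29 to 0.58 TPM in the labelled libraries, and all 3 that were tested were lower. Siglech was lower there too (-1.94), and the 2 megakaryocyte markers tested were higher. The macrophage markers summed to 62.4 to 84.7 TPM there. Of the 4 tested, Cd163 was lower (-2.18) and 0 were higher, with Adgre1 at -0.40 and C1qb at 0.63. Pdgfrb was higher here too, by 2.04.

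**Figure D4:**
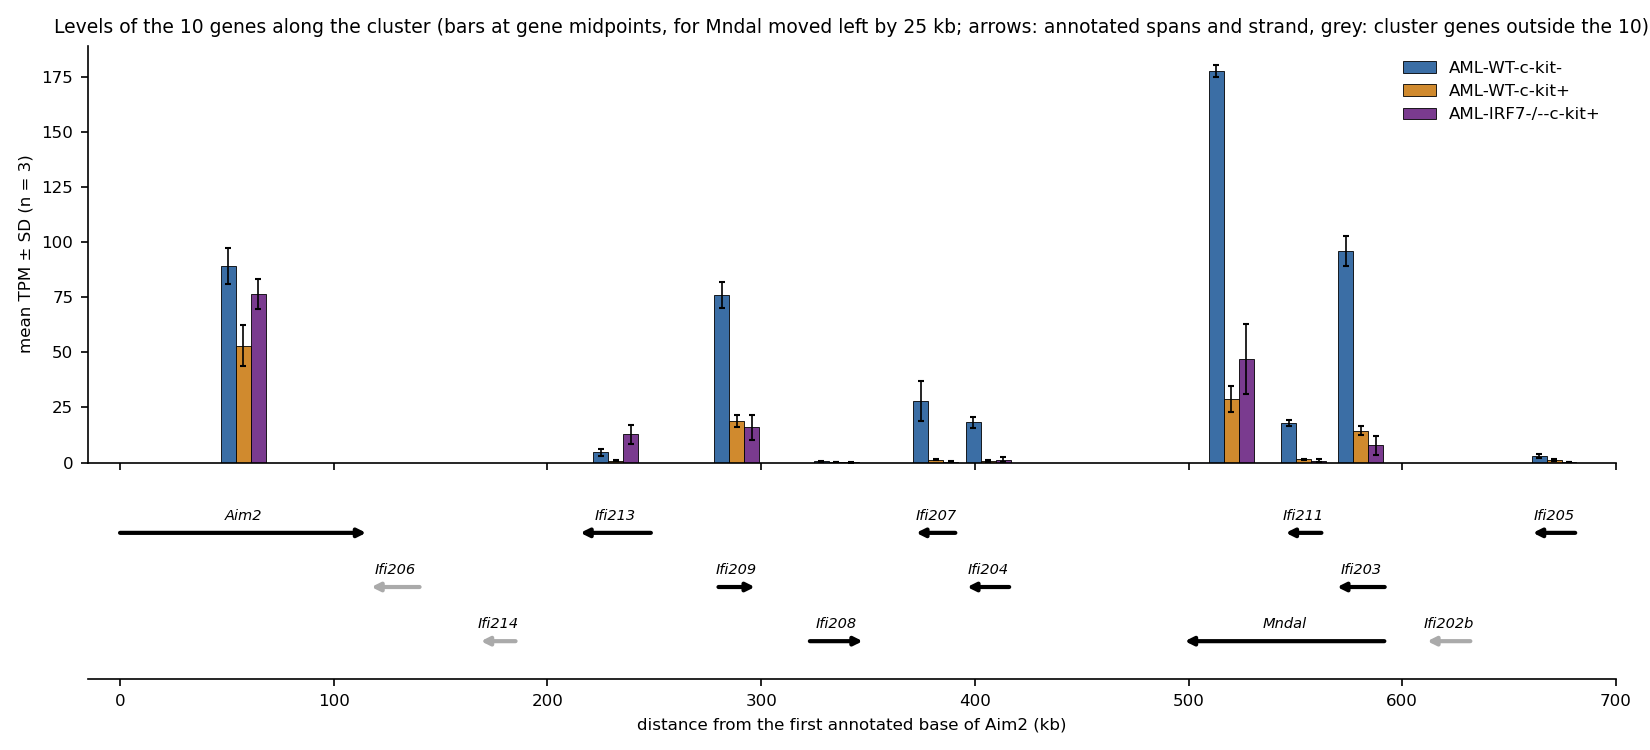
Mean TPM ± SD (n = 3) of the 10 genes in each group, placed along the cluster by distance in kb from the first annotated base of Aim2, above arrows for the annotated span and strand of the genes. The c-kit- bar is the tallest for 9 of the 10 genes, and for Ifi213 the bar of the labelled libraries is, at 12.9 TPM.

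The neighbours of the cluster were read for comparison. Within 1 Mb on either side 81 genes of the table are annotated, 18 reach 1 TPM in at least 3 libraries, and 9 of these are not among the 10. Ifi214 lies inside the cluster and the other 8 before it, the nearest being Dusp23 at 717917 bases. None of those tested was called in either comparison with WT c-kit+. Dusp23, a phosphatase gene, was higher in the labelled libraries than in c-kit- libraries by 1.23 (SE 0.20, limma adjusted p = 0.00182).

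A list of 26 interferon-stimulated genes outside the cluster is given beside it, and the difference between the lists was not tested. From c-kit- to WT c-kit+, 10 of 21 tested were lower and 0 were higher, with a median of -0.95. In the labelled libraries against WT c-kit+, 21 of 23 were higher and 0 were lower, with a median of 1.78. Rtp4, a chaperone gene for receptors, led with a log2 difference of 4.64, and Ifi27l2a, a mitochondrial protein gene, followed with 4.10. Rtp4 and some others of the list were under 1 TPM in every WT c-kit+ library. These passed the filter only through the labelled libraries, where they are high, which favours a higher call. The other comparisons also held listed genes that passed only through the group where they are high. Without labelled library 1, 13 of 18 were higher and the median was 1.16. Rtp4 and some others then fell below the filter, though Rtp4 was at 12.8 and 22.7 TPM in labelled libraries 2 and 3. The smaller count and median are over fewer genes, so they do not measure the weight of that library alone. The share of all genes called higher also fell, from 6.3% to 4.45%. Isg15, a ubiquitin-like modifier, was at 104, 13.7 and 19.6 TPM in the labelled libraries and at 4.89 to 6.37 TPM in WT c-kit+ libraries. Ifi213 was the 1 gene of the 10 that was called with them. Against c-kit-, 9 of 25 interferon-stimulated genes were higher and 2 lower, with a median of 1.01, where the median of the cluster genes was -2.23. Without labelled library 1, 9 were higher and 4 lower, and these medians were 0.52 and -2.49.

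**Figure D5:**
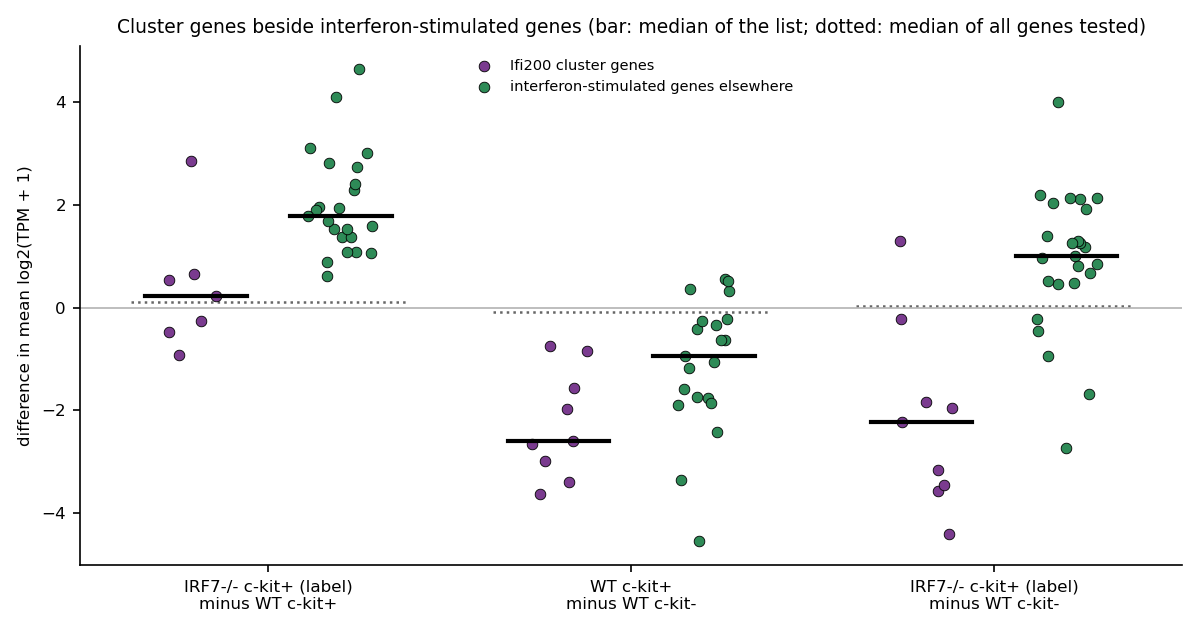
Differences in mean log2(TPM + 1) of the tested cluster genes and of interferon-stimulated genes outside it (points), with the median of each list (bar) and of all genes tested (dotted), for the 3 comparisons. In the labelled libraries against WT c-kit+ the medians are 0.23 and 1.78. Without labelled library 1 they are -0.06 and 1.16, over fewer genes of each list, since some fall below the filter. In WT c-kit+ against c-kit- they are -2.60 and -0.95. Some points passed the filter only through the group where they are high.

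Receptors, kinases and factors that carry the interferon signal formed a second list. Of 15 tested, 0 were higher and 2 lower in the labelled libraries against WT c-kit+: Irf8, a factor of monocyte and dendritic cell fate, at -1.59 and Irf5 at -1.20. Without labelled library 1, 1 was lower. Irf9 (0.91), an interferon regulatory factor that acts at the ISRE, was not called. From c-kit- to WT c-kit+, 7 of 15 were lower, among them Irf5 (-3.47), Irf7 (-2.38), Irf8 (-2.08) and Irf9 (-1.09). In the labelled libraries 7 of 15 were lower than in c-kit-.

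Other genes of nucleic acid sensing in the cytosol, a list of sensors and of genes that act with them such as kinases, were split. In the labelled libraries against WT c-kit+, 3 of 12 were higher, Zbp1 (2.83), Dhx58 (1.45) and Ifih1 (1.44), which all bind nucleic acid, and 1 was lower, the kinase gene Ikbke (-1.43). Without labelled library 1, 2 of 12 were higher and 1 was lower. Cgas, the sensor that makes cyclic GMP-AMP from DNA, differed by 0.41 and its receptor gene Tmem173 by -0.44, and neither was called. From c-kit- to WT c-kit+, 2 of 12 were higher and 4 were lower, including Tmem173 (-1.61) and Zbp1 (-2.61). Against c-kit-, 2 were higher and 3 lower in the labelled libraries.

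The partners of Aim2 in the inflammasome were present in all 3 groups. Pycard, the adaptor, ran from 96.0 to 101 TPM in c-kit-, from 41.0 to 49.7 TPM in WT c-kit+ and from 52.5 to 72.5 TPM in the labelled libraries. Casp1, the protease, ran from 57.4 to 62.2, from 36.1 to 42.1 and from 43.5 to 49.9 TPM. For both genes, as for Aim2, the WT c-kit+ libraries were the lowest group, with differences of -1.09 for Pycard, which was called lower, and -0.64 for Casp1, which was not, from c-kit-. In the labelled libraries against WT c-kit+ they differed by 0.42 and 0.31, and neither was called. Of the 8 genes tested, 2 were lower and 0 higher there: Il1b, the cytokine that Casp1 cleaves, at -2.57 and Nlrp3, another inflammasome sensor, at -2.13. Il1b was at 0.15, 0.00 and 0.16 TPM in the labelled libraries.

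The 9 genes that reach 1 TPM in at least 3 libraries also differ in the genes whose profile over all 9 libraries was most like theirs, measured as the root mean square distance between log2(TPM + 1) profiles after taking out each gene's mean. The distance is a description over libraries that share their groups. Aim2 was closest to Pomp, a proteasome assembly factor, at 0.06, and to Parp1, a DNA repair enzyme, at 0.08. Ifi204 was closest to the antiviral gene Mx1 at 0.28, Ifi207 to Slfn1 at 0.17, Ifi203 to Ms4a4b at 0.33 and Ifi211 to Ms4a4a at 0.28. Mndal was closest to Stn1 at 0.22, Ifi209 to Olfr56 at 0.20 and Ifi205 to Nfkbid at 0.15. Ifi213 was closest to Cacna1f, a calcium channel gene, at 0.35, the widest of these distances. Within the cluster Ifi213 lay 1.02 to 2.36 from the other 8, whereas Ifi203 and Ifi211 lay 0.36 apart.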

How the data were processed

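RNA was measured in 9 libraries, grouped by the titles in the labels. The authors deposited 1 table of TPM per gene, which already holds their alignment, counting and scaling, and the aligner and its settings are not given in the sources used here. The header is silent on the unit, and TPM was inferred because each library sums to between 987468 and 992231. TPM keep no depth, so counting intervals were not possible, and a rise of a few abundant genes lowers all others.

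The 10 genes and all other lists were chosen with earlier results of these data known. limma 3.58.1 (R 4.3.3; lmFit, eBayes with trend) was fitted to log2(TPM + 1) for each pair of groups on its 6 libraries, with genes of at least 1 TPM in at least 3 of them, and p-values were adjusted over all genes by the Benjamini-Hochberg method. Fold changes on this scale understate low genes. The functions were tested on simulated data. Genes named are the 10, Irf7, list genes named in advance for their role, and those with the largest called differences in each list; 1 listed gene is not reported here by name. Alternatives were adjusted p alone, no filter or one of 5 TPM, quantile normalization, equal medians, 0.1 as the pseudocount, a joint fit of the 9 libraries, a replicate block, single libraries left out and sums without Mndal. The other lists without labelled library 1 were added after the data were seen. Coordinates are those of GENCODE M21 (GRCm38). Promoters are from RefSeq (GRCm38.p6). Tables were handled with pandas 2.3.3 and plots made with matplotlib 3.10.9 in Python 3.11.15.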

Additional observations from a re-analysis of the deposited data

How the results depend on the processing

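No called value changed direction. Without labelled library 1 the median of the cluster genes in the labelled libraries against WT c-kit+ went from 0.23 to -0.06, and that of nucleic acid sensing genes against c-kit- from 0.17 to -0.03. For single genes, 330 of 336 alternative values kept their side of the threshold and 6 passed it that had not: Ifi203 and Ifi205 without single libraries, as given with those genes, and Aim2 and Ifi205 by adjusted p alone.

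In the labelled libraries against WT c-kit+, 2 of the 10 genes were called with no filter, 1 of them lower (Ifi205). Of all 25818 genes, 1492 were called in either direction with no filter. By adjusted p alone 2 of the 10 were called, both higher. With each library left out in turn, 1 to 2 were called, 0 to 1 of them lower. Over all genes 1015 were called with a filter of 5 TPM and 6357 by adjusted p alone, where WT c-kit+ against c-kit- gave 5519 and the labelled libraries against c-kit- gave 8023. The summed level without Mndal was 333 TPM in c-kit-, 92.0 TPM in WT c-kit+ and 116 TPM in the labelled libraries. Against c-kit- the labelled libraries had 5 genes lower, not 7, without any 1 of the c-kit- libraries, since Ifi205 and Ifi207 then fall below the filter. In the same comparison, 4 rather than 2 interferon-stimulated genes were lower without labelled library 1. Whether equal replicate numbers pair the libraries was not settled. Correlations of deviations ran from -0.07 to 0.24 over the 9 pairs of equal number. Pairs of unequal number ran from -0.18 to 0.14. With a replicate block in labelled against WT c-kit+, limma adjusted p was 0.0304 for Ifi203 and 0.0383 for Mndal, both still under the size asked for. With the replicate block 1549, 1950 and 2749 genes were called in the 3 comparisons, labelled against WT c-kit+, WT c-kit+ against c-kit-, and labelled against c-kit-, and no call of the 10 genes changed. Without counts the precision of low values such as those of Ifi208 is known only from 3 libraries.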
